A study of Saccharomyces cerevisiae with 4 samples.

Results

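The 10 open reading frames of Ty elements listed below were followed in RNA bound to Mex67, the receptor that carries messenger RNA out of the nucleus in budding yeast. The 10 frames, chosen by systematic name with earlier results of these data known, are YCL019W and YCL020W of a Ty2 element and YJR027W, YJR029W, YML039W, YML045W, YMR045C, YMR050C, YER138C and YER160C of Ty1 elements. They are 10 of the 5539 genes with a named probe. Each has 2 probes, 8 have a ratio on at least 1 array, and 6 have ratios on at least 3 arrays. YML045W and YER160C have no ratio on any array.

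The study used 4 two-colour DNA arrays, all of 1 group, and hybridised RNA of Saccharomyces cerevisiae recovered with a tagged Mex67 (zzMex67) together with its total RNA. Arrays 1 and 2 carried the precipitated RNA in channel 2, arrays 3 and 4 in channel 1. Titles carry a numeric code of unstated meaning, shared by arrays 1 and 3 and by arrays 2 and 4, so that each code covers both channel assignments. The labels give neither the strain background nor the growth conditions, and an untagged control precipitation was not analysed here. They also do not tie the arrays to separate cultures, so the spread between arrays, which every p-value measures, may be technical. Every value below is a log2 ratio minus the median of that array over the named genes with ratios on at least 3 arrays, and is written as a log2 ratio over the median. No label states the direction of the ratio. It was read as bound over total RNA, the likely sense of the labels, and read the other way every position below turns round.

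Ty elements are retrotransposons with long terminal repeats. Their full-length transcript serves both as messenger RNA and as the genome packaged into virus-like particles. The gag frame (TYA) codes for the particle's coat protein, and the pol frame (TYB), read as a fusion with gag after a ribosomal frameshift, codes for protease, integrase and reverse transcriptase with RNase H. Ty1 RNA is known to leave the nucleus by way of Mex67. Copies of a family are nearly identical, so a spotted probe can take up RNA of other copies. The gene table used here (assembly R64) holds 41 pairs of frames with a common 5′ start whose longer frame spans at least 4000 bases, and 12 of these have a named probe for the longer frame. All 10 frames described here belong to such pairs, so a pol name covers gag and pol together. How much of each ratio came from other copies was not tested. No probe sequences were used here, and none are shown.

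The members did not share 1 position. The Ty2 frame YCL019W lay 13.2-fold above the array median, with a mean log2 ratio of 3.72 ± 0.51 (SD, n = 3), and 1 of the 596 features with ratios on at least 3 arrays had a higher mean. The Ty1 frames had means from -2.41 to 1.13. YMR050C had a mean of 1.13 ± 0.34, YJR029W 0.80 ± 0.72, YMR045C 0.21 ± 0.58, YER138C -0.03 ± 0.24 and YJR027W -2.41 ± 1.69 (SD, n = 3). The median of these 6 means was 0.51, or 0.21 without YCL019W, beside a median of -0.0047 and quartiles of -0.99 and 0.90 over all 596 features. Since the frames were chosen with these ratios known, the values are given as a description, with no test.

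**Figure D1:**
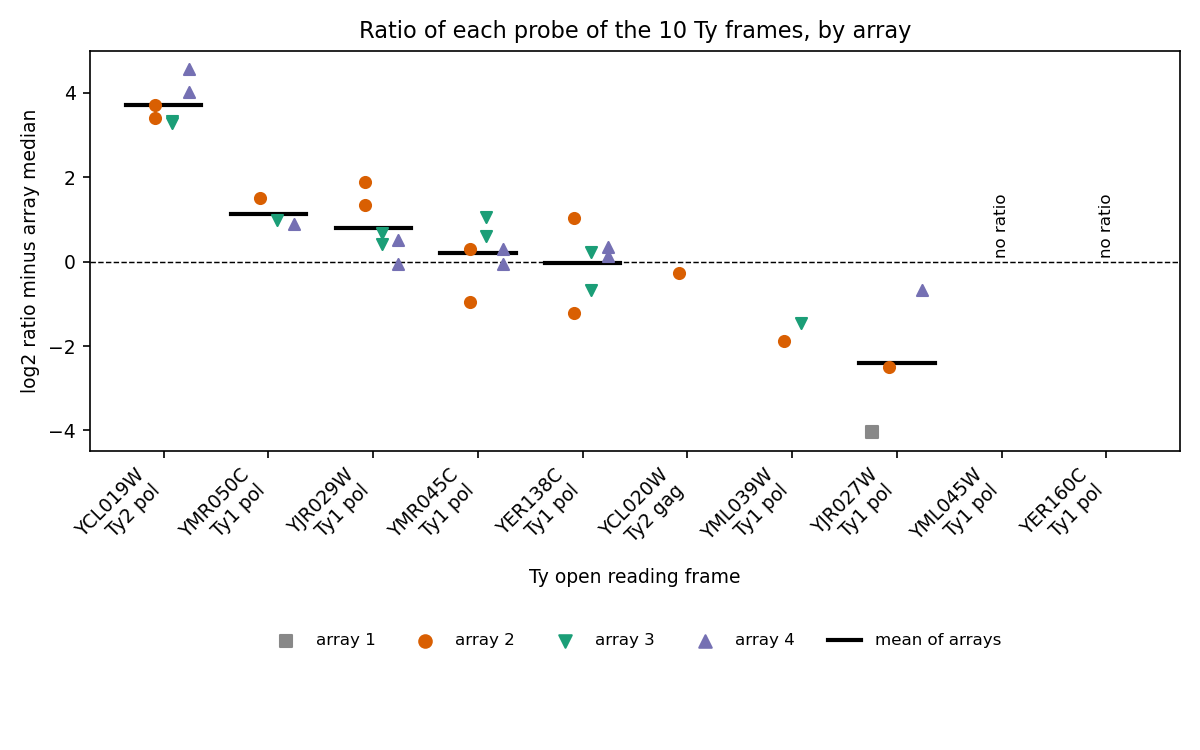
Each point is 1 probe on 1 array; the vertical axis is the log2 ratio minus the array median, the horizontal axis the 10 Ty frames, and bars are means over arrays for frames with 3 arrays. All 6 points of YCL019W lie above 3, and no Ty1 point reaches 2.

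YCL019W, the pol frame of Ty2, had ratios from both of its probes. The first probe had log2 ratios over the median of 3.72, 3.34 and 4.57 on arrays 2, 3 and 4, and the second 3.40, 3.29 and 4.03. Both probes were thus far above the median on the 3 arrays that measured them, with all arrays read as turned the same way. With arrays 3 and 4 turned against array 2, the mean of the frame would be -1.35, so this is no check of the dyes. Averaged over its probes, the frame lay above 99.7%, 98.4% and 99.7% of the features with a ratio on arrays 2, 3 and 4. As deposited, its probes had log10 ratios of 1.64 and 1.55 on array 2, -0.114 and -0.126 on array 3 and 0.890 and 0.728 on array 4. The position on array 3 therefore rests on the centring, which added log2 3.71 there. Array 1 had no ratio for it.

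YCL019W also stood above each Ty1 pol frame with 3 arrays on every array where it was measured. On array 2 it had a log2 ratio over the median of 3.56, against 1.61 for the highest of 9 such Ty1 frames, YJR029W. On array 3 the values were 3.32 and 1.01, the latter for YHR214C-B among 8 frames, and on array 4 they were 4.30 and 0.89, the latter for YMR050C among 9. The gap to the highest Ty1 frame was 1.95, 2.30 and 3.42 log2 units. When each array was centred within blocks of 400 consecutive probes, YCL019W had 2.91, 2.42 and 3.49 and the highest Ty1 frame 1.81, 0.95 and 0.58. Ty2 is represented by this element alone among the named probes, so a trait of the family cannot be told apart from one of this copy or of its probes.

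The gag frame of the same Ty2 element, YCL020W, starts where YCL019W starts. It had a ratio on 1 probe of array 2 alone, where it lay at -0.28, above 48.9% of the features of that array. YCL019W lay at 3.56 on the same array, so the gag probe was 3.83 log2 units below the pol probes. Both frames lie on the same full-length transcript as background knowledge has it. With 1 spot the difference has no replicate check.

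A pair of Ty1 pol frames lay above the median on each array that measured them. YMR050C had log2 ratios over the median of 1.52, 1.00 and 0.89 on arrays 2, 3 and 4, all from 1 of its 2 probes. YJR029W had 1.61, 0.55 and 0.23, a mean that fell from 0.80 to 0.39 without array 2. Its first probe gave 1.34, 0.68 and 0.52 and its second 1.88, 0.42 and -0.07, so that array 4 placed the probes on both sides of the median. On array 2 these frames lay above 92.0% and 92.7% of the features, on array 3 above 76.1% and 67.0%, and on array 4 above 77.8% and 62.2%.

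YMR045C and YER138C lay on both sides of the median. YMR045C had log2 ratios over the median of -0.32, 0.84 and 0.13 on arrays 2 to 4, and its mean was 0.48 without array 2 and -0.10 without array 3. Centred within blocks of probes, it fell below on each array, at -1.33, -0.61 and -1.51 (mean -1.15 ± 0.47, SD, n = 3). The medians of its block of probes were 1.01, 1.45 and 1.63 over the array medians. YER138C had -0.09, -0.23 and 0.24, with a first probe at -1.22, -0.68 and 0.13 and a second at 1.03, 0.22 and 0.36. Its first probe was thus the lower on each of the 3 arrays, by 2.25, 0.90 and 0.23 log2 units. The near-median mean of YER138C averages probes that differed, and centred within blocks it was -0.35 ± 0.18 (SD, n = 3).

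The 2 remaining Ty1 pol frames with ratios lay below the median. YJR027W had log2 ratios over the median of -4.05, -2.49 and -0.68 on arrays 1, 2 and 4, the first pair from 1 probe and the last from the other. It was the only one of the 10 frames with a ratio on array 1, and its mean was -1.58 without that array. Array 1 ranked the features differently from the others: across features it correlated with arrays 2, 3 and 4 at r = 0.127, 0.239 and 0.163 (203, 92 and 106 features), whereas arrays 2 to 4 correlated with each other at r = 0.756 to 0.889. YML039W had -1.88 on array 2 and -1.46 on array 3, also from different probes, and with 2 arrays it was left out of the fit. YJR027W lay above 2.32%, 2.94% and 37.6% of the features of arrays 1, 2 and 4, and YML039W above 7.72% and 18.1% of those of arrays 2 and 3.

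In order of the means, YCL019W (3.32 to 4.30) and YMR050C (0.89 to 1.52) did not overlap over arrays. YMR050C overlapped with YJR029W (0.23 to 1.61), YJR029W with YMR045C (-0.32 to 0.84), and YMR045C with YER138C (-0.23 to 0.24). YER138C did not overlap with YJR027W (-4.05 to -0.68), which was measured on other arrays in part. Of the 6 frames, 3 lay above the median on each array with a ratio, beside 34.1% of all 596 features, 1 lay below on each, beside 34.1%, and 2 lay on both sides. The shares are printed for reference, since the frames were chosen on the same contrast.

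**Figure D2:**
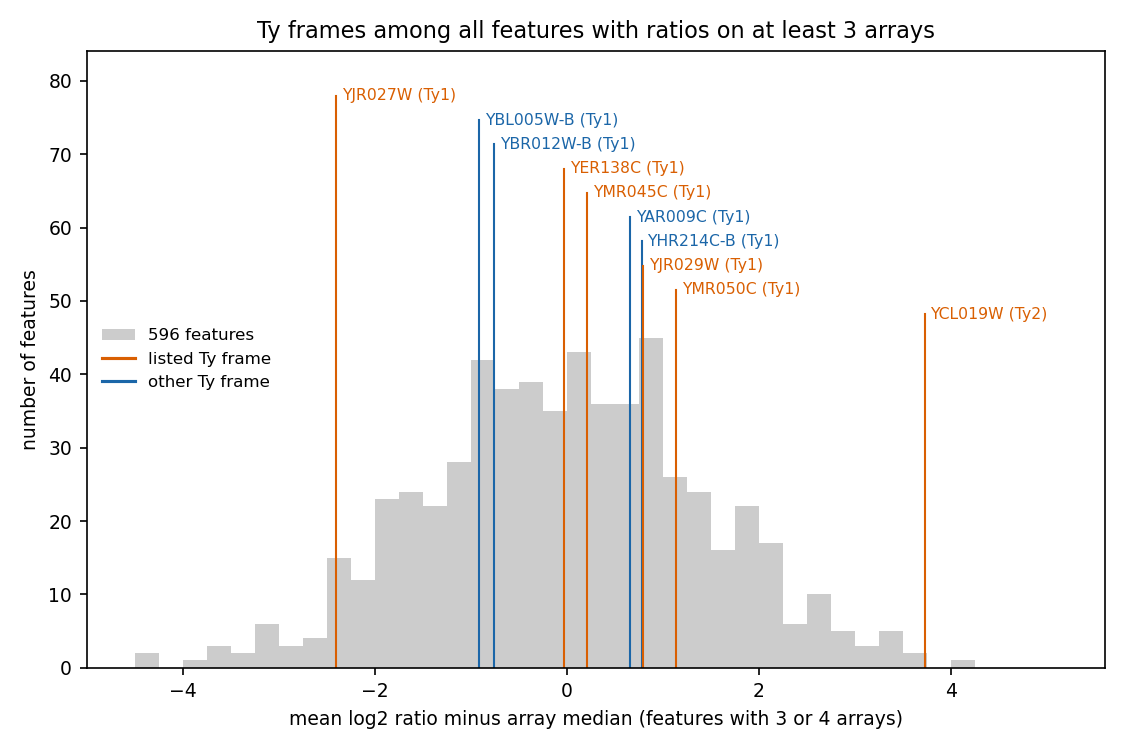
Histogram of mean log2 ratios minus the array median for the 596 features with ratios on at least 3 arrays; vertical lines mark the 6 listed (orange) and 4 other (blue) Ty frames, and line heights carry no value. The 9 Ty1 frames run from -2.41 to 1.13, and YCL019W of Ty2 stands at 3.72 near the upper end.

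Frames outside the 10 were found by systematic name, since the probe annotation and the gene table carry no description of function. There were 17 with a probe, and 4 of these, all Ty1 pol frames, had ratios on at least 3 arrays. YHR214C-B had log2 ratios over the median of 0.71, 1.01 and 0.61 on arrays 2 to 4 and passed the test as above the median, as 22.5% of all 596 features did (mean 0.78 ± 0.21, SD, n = 3; limma, adjusted p = 0.0460). YBR012W-B had -0.96, -0.57 and -0.74 and passed as below it, as 25.2% did (-0.76 ± 0.19, SD, n = 3; limma, adjusted p = 0.0467). YAR009C (0.66 ± 0.14, SD, n = 3; limma, adjusted p = 0.0628) and YBL005W-B (-0.91 ± 0.58, SD, n = 3; limma, adjusted p = 0.0688) did not pass. The other frames were sought with earlier results of these data known, so these p-values are descriptive. Neither call was firm. That of YHR214C-B missed the threshold in 11 of 17 alternatives (adjusted p from 0.0259 to 0.995) and that of YBR012W-B in 14 of 17 (adjusted p from 0.0268 to 0.995). In limma fits without arrays 2, 3 and 4 in turn the adjusted p was 0.105, 0.184 and 0.184 for YHR214C-B and 0.131, 0.123 and 0.232 for YBR012W-B. Both calls ended when the pairs of arrays sharing a title code were treated as random blocks (limma, adjusted p = 0.0504 and 0.0531) or each pair was averaged (0.104 and 0.141). YAR009C and YBL005W-B passed in the limma fit without array 1 (adjusted p = 0.0381 and 0.0420; ranges over alternatives 0.0381 to 0.995 and 0.0123 to 0.995). Neither has a ratio on array 1, so their own values and means were unchanged in that fit.

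Probes of YHR214C-B disagreed in side. The first gave log2 ratios over the median of -0.46, 0.26 and -0.98 on arrays 2 to 4 and the second 1.88, 1.76 and 2.20, and with the first probe alone the mean was -0.39 (limma, adjusted p = 0.350). Probes of YBR012W-B gave -0.74, -0.46 and -0.79 and -1.18, -0.69 and -0.69, all below. Those of YBL005W-B gave -1.12, -1.55 and -2.28 and 0.45, -0.26 and -0.73, on both sides of the median on array 2. With its first probe alone YBL005W-B had a mean of -1.65 and passed as below (limma, adjusted p = 0.0123). Taking listed and other frames together, 9 Ty1 frames had ratios on at least 3 arrays. Their means ran from -2.41 to 1.13 with a median of 0.21, 5 of them above 0 and 4 below.

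**Figure D3:**
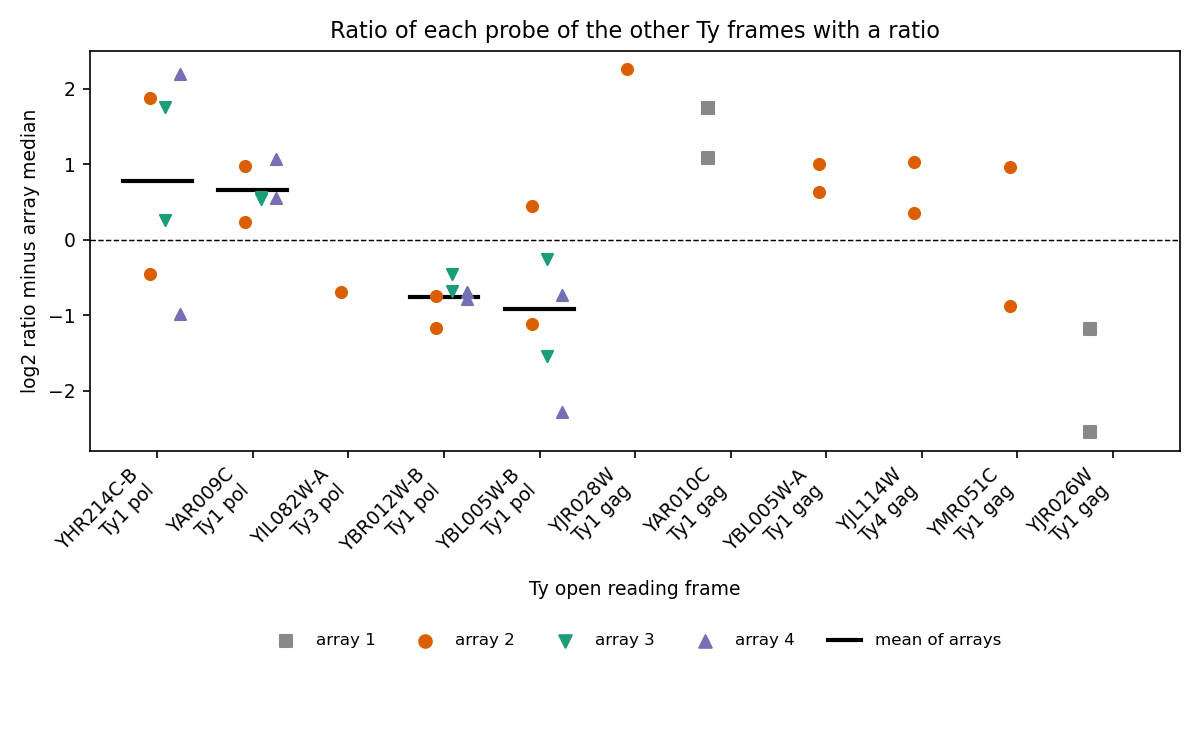
Each point is 1 probe on 1 array for the Ty frames outside the 10 that have a ratio; the vertical axis is the log2 ratio minus the array median and bars are means for frames with 3 arrays. The probes of YHR214C-B lie on both sides of 0 on arrays 2 and 4, and gag frames have points on a single array each.

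Ratios were reported for more of the pol frames than of the gag frames. Of 12 Ty1 pol frames with a probe, 10 had a ratio and 9 had ratios on at least 3 arrays. Of 8 Ty1 gag frames with a probe, 5 had a ratio, each on 1 array, and 0 had ratios on 3. On arrays 2, 3 and 4 the 34 probes of Ty pol frames had ratios in 58.8%, 52.9% and 52.9% of cases, beside 19.3%, 7.60% and 8.69% of all 12800 probes. The 20 gag probes had ratios in 40% of cases on array 2 and 0% on arrays 3 and 4, and in 20% on array 1, where pol probes had 2.94% and all probes 6.60%. Why a spot lacks a ratio is not stated in the labels, so these shares describe which spots were reported and say nothing of binding.

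Where a gag frame and the pol frame of its element were measured on the same array, they did not hold 1 order. On array 2 gag of YJR028W lay at 2.26 and pol of YJR029W at 1.61. Gag of YBL005W-A lay at 0.82 and pol of YBL005W-B at -0.34 on that array, while gag of YMR051C lay at 0.04 and pol of YMR050C at 1.52. On array 1 gag of YJR026W lay at -1.87 and pol of YJR027W at -4.05. With the Ty2 pair above, gag was the higher in 3 of 5 pairs, and each difference comes from 1 array. Of the other families, Ty4 gag (YJL114W) lay at 0.69 and the Ty3 frame YIL082W-A at -0.69 on array 2. YJL113W of Ty4 and the Ty5 frames YCL074W and YCL075W had no ratio, as did YML040W, YMR046C and YBR012W-A of Ty1 gag. YAR010C, the gag partner of YAR009C, lay at 1.42 on array 1.

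The copies of Ty1 pol spread over 1.91 to 4.10 log2 units on 1 array. The 9 Ty1 pol frames with 3 arrays ran from -2.49 to 1.61 on array 2. The 8 measured on array 3 ran from -0.90 to 1.01, and the 9 on array 4 from -1.50 to 0.89. Over arrays 2 to 4 both probes of a gene had ratios in 1332 cases, with a median absolute difference of 0.44 and a 90th percentile of 1.40. In the 27 cases from Ty frames the median was 0.54 and the 90th percentile 2.01. A range over 8 or 9 frames is wider than a difference between 2 probes by construction, so the figures are set side by side and no test was made.

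**Figure D4:**
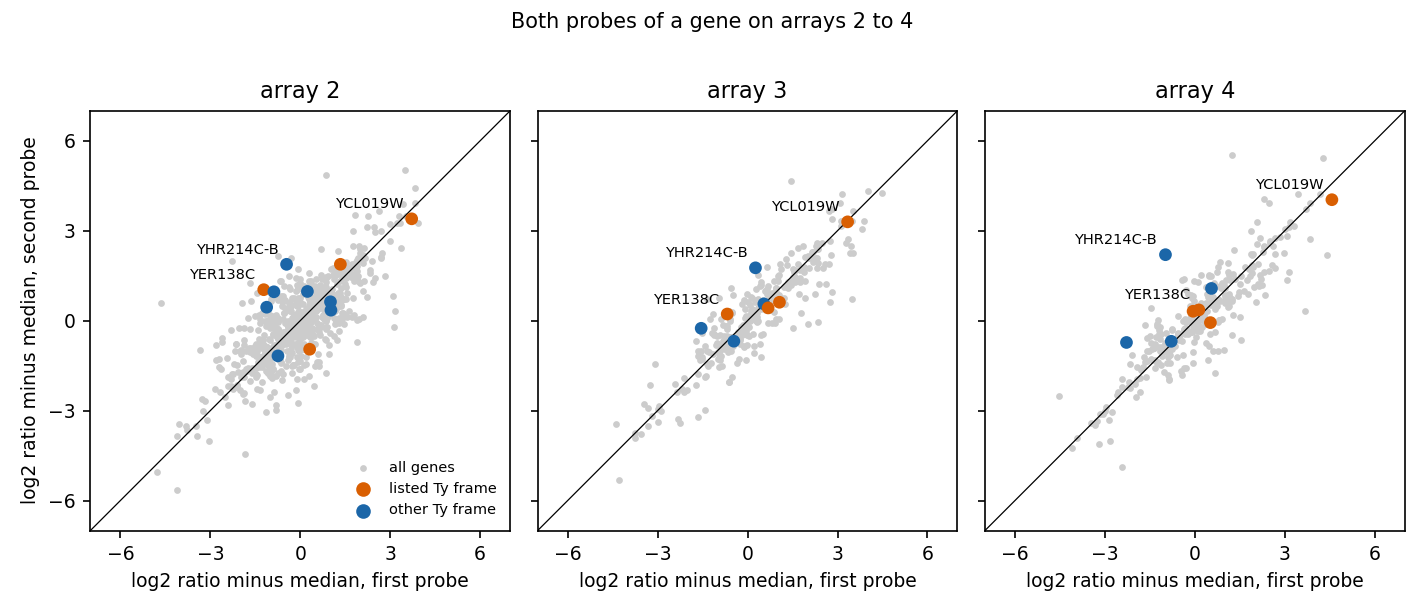
Log2 ratio minus the array median of the first (horizontal) and second (vertical) probe of each gene on arrays 2, 3 and 4, with listed Ty frames in orange, other Ty frames in blue and all other genes in grey; the line marks equal values. YCL019W sits near the line at the upper end, and YHR214C-B lies 2.34, 1.50 and 3.18 log2 units off it.

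Genes nearest to the mean profile of the 6 frames were sought over arrays 2 to 4 among 462 named genes outside the Ty frames. That profile, 0.63, 1.09 and 0.85, averages unlike frames and lies between them. On array 3 it is the mean of 5 frames, since YJR027W has no ratio there. By mean absolute difference the nearest were RPL4B, a protein of the large ribosomal subunit (0.07 log2 units), GAL2, the galactose permease (0.08), DED1, an RNA helicase of translation initiation (0.09), CBP3, an assembly factor of mitochondrial complex III (0.10), RPS21A, of the small ribosomal subunit (0.11), and VMA4, a subunit of the vacuolar ATPase (0.14). The same search for YCL019W alone, chosen after its values were seen, gave RPL26B, of the large ribosomal subunit, at 3.87, 3.21 and 3.88, then the superoxide dismutase gene SOD1 at 3.15, 3.49 and 3.84 and the glucose transporter gene HXT3 at 3.23, 3.59 and 3.72. Their mean absolute differences from YCL019W were 0.28, 0.35 and 0.39.

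Probes of neighbouring number could also be compared, though no label ties probe numbers to places on the array. Of the probes numbered within 5 of a probe of the members, 4 genes had ratios on at least 3 arrays. BUD3, a bud site selection gene numbered near YCL019W, had log2 ratios over the median of 1.44, -0.43 and 1.62 on arrays 2 to 4 where YCL019W had 3.56, 3.32 and 4.30. GAL2 lay near YMR045C and had 0.63, 0.95 and 0.75. POP4, a subunit of RNase P and RNase MRP, lay near YCL020W and had 1.01, 1.30 and 0.62. SOP4, an endoplasmic reticulum gene near YJR027W, had -1.93, 1.42, 0.81 and 0.92 on arrays 1 to 4, so that it was low on array 1 as YJR027W was and above the median on arrays 2 and 4 where YJR027W was below. The part of spot position in these ratios was not tested.

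Host genes that control Ty1 transcription, RNA turnover or transposition were also listed. All 56 listed had a probe and 23 had a ratio. The 5 with ratios on at least 3 arrays stand beside 498 of the 5539 genes with a named probe. Of these 5 host genes, 1 passed as above the median, as 22.5% of all 596 features did, and 1 as below it, as 25.2% did. The other 3 missed the threshold, and the median of the 5 means was -0.82. The list was chosen with earlier results of these data known, so the p-values below are descriptive. SPT7, which codes for a subunit of the SAGA coactivator complex needed for Ty transcription, had log2 ratios over the median of 1.58, 2.90 and 2.96 on arrays 2 to 4 (mean 2.48 ± 0.78, SD, n = 3; limma, adjusted p = 0.00876). Its values on arrays 2 and 4 came from 1 of its 2 probes. SPT8, of the same complex, had -2.14, -2.25 and -2.21 (-2.20 ± 0.05, SD, n = 3; limma, adjusted p = 0.00444). The call of SPT7 ended without array 4 (limma, adjusted p = 0.0512; range over alternatives 0.00323 to 0.995). SPT20, also of SAGA, had -0.91 ± 1.25, SNF5, of the SWI/SNF remodelling complex, -0.82 ± 1.20, and LSM1, an activator of mRNA decapping, 0.53 ± 0.35 (SD, n = 3), with limma adjusted p of 0.221, 0.252 and 0.142. These means moved with single arrays: SPT20 had -0.31 without array 1 and -1.56 without array 2. SNF5 had -0.48, -0.45 and -1.51 without arrays 2, 3 and 4. LSM1 had 0.33 without array 3, and centred within blocks of probes it passed as above at 0.97 (limma, adjusted p = 0.0370; range over alternatives 0.0370 to 0.995). Its first probe had -0.53, 0.91 and -0.14 on arrays 2 to 4 and its second 1.16, 0.97 and 0.84. With the first probe alone the mean of LSM1 was 0.078 (limma, adjusted p = 0.865).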

How the data were processed

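RNA precipitated with zzMex67 and total RNA were compared on 4 two-colour arrays with 12800 probes. The deposited table holds log10 ratios. Its base follows from the values: 15.4% are log10 of a quotient of whole numbers (denominator up to 199, numerator up to 999, relative tolerance 3e-09), against 0.185% for log2. How the authors corrected background, normalized and left out spots is not stated in the labels. Array medians were -0.960, 0.462, -1.12 and -0.519 (log10), so the arrays were not centred, and 845, 2467, 973 and 1112 probes had a ratio. The number of arrays limits the precision, and signal over background was not used here. All 4 columns were read as turned the same way because arrays of opposite channel assignment correlated above 0. A dye effect of each spot would also give such correlations and was not tested.

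Gene names came from GEO's platform annotation, updated by Entrez identifier (11138 with 1 symbol, 1662 with none here, 11128 matched). The 2 repeated rows were averaged with the first row of their probe, and a gene's probes were averaged on each array. Ratios were converted to log2 and centred on the array median over the 498 named genes with ratios on at least 3 arrays (100, 496, 480 and 491 of them on arrays 1 to 4). The 596 features on at least 3 arrays (genes and unnamed probes) were fitted in limma 3.58.1 (lmFit, eBayes; R 4.3.3), mean against 0, two-sided, with Benjamini-Hochberg adjustment and a threshold of 0.05. The fit was run on simulated ratios with independent noise of the same spread for all features. It recovered 87% of shifts of 1 log2 unit and 100% of shifts of 2, with 0% of calls false. The features measured here differ in spread, and array 1 ranked them differently, so that run checks the code alone. Other steps used numpy 2.4.6, pandas 2.3.3 and matplotlib 3.10.9 under Python 3.11.15, and statmod 1.5.0 for the random block.

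The members and lists were chosen with earlier results of these data known. The genes named were the 10 frames, the other Ty frames with a probe, the 6 genes nearest to the mean profile over arrays 2 to 4, host genes on at least 3 arrays, and genes of probes numbered within 5 of a member's probe. The rule had relied on annotation text for the other Ty frames; systematic names and common starts were used instead. The alternatives were other centrings, quantile normalization or scaling, stricter and looser limits on missing values, turned arrays, other rules for probes of a gene, the title code averaged or as a random block, a variance trend and each array left out.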

Additional observations from a re-analysis of the deposited data

Results flagged for a closer look

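RPL26B, named as the gene nearest to YCL019W, had 1 array far from the others: -3.30 on array 1, beside log2 ratios over the median of 3.87, 3.21 and 3.88 on arrays 2 to 4. Of the genes named, 3 had ratios on all 4 arrays and could be examined in this way, and chance flags about 1 in 20 groups. The Ty frames had at most 3 arrays and could not be examined.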

How the results depend on the processing

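Each array set precipitated beside total RNA, so every ratio is a comparison within 1 array. No pairing of arrays between groups was possible, because all 4 arrays belong to 1 group and no 2 groups share replicate numbers. The arrays with a common title code were averaged or treated as a random block instead. The log2 ratios over the median depend on the reading of all arrays as turned the same way and on the centring. With arrays 3 and 4 turned or without centring, the means of YJR027W (-1.95, -2.94) and YER138C (-0.036, -1.22) stayed below 0. That of YCL019W was 2.53 without centring. With arrays 3 and 4 turned, limma called 0 features above and 0 below (0 and 1 at an unadjusted p under 0.05), 0 of the 6 frames lay above the median on each array, the median of their means was -0.27, and the means were -1.35 for YCL019W, -0.12 for YMR050C, 0.12 for YBR012W-B, -0.30 for YHR214C-B, -1.43 for SPT7 and 0.77 for SPT8. Without centring, limma called 0 above and 0 below (0 and 52 at an unadjusted p under 0.05), 0 of the 6 frames lay above 0 on each array, the median of their means was -0.69, and frames with means above 0 fell below it: YMR050C had -0.063, YHR214C-B -0.42, YJR029W -0.40, YMR045C -0.98 and YAR009C -0.54, as did LSM1 at -0.66. Turning reverses the sign of arrays 3 and 4 for every feature. Without centring, the array medians of log2 -1.71, 1.74, -3.71 and -1.61 on arrays 1 to 4 stay in the values. These moves thus follow from the settings. The share of all features above on each array in these 2 settings is not given here. Centred within blocks of 400 probes, 99 features were called below, beside 150. With the first probe of each gene the median of the means was 0.85 and YHR214C-B had -0.39. With probes kept apart, 209 of 822 features were called above, more features being tested. There 5 of 9 probes of the members lay above on each array, and the share over all probes is not given here. Of the 80 features with ratios on all 4 arrays, 13 were called above and 8 below, and none of the 10 frames was among them. With each array left out in turn, keeping features with at least 2 others, 45 to 168 features were called above and 41 to 174 below, the lowest without array 4; 83 and 88 were called without array 3. The median of the members' means was then 0.44 to 0.67 and 3 to 4 of 6 lay above on each array. The share of all features that did so without each array is not given here. The mean of YCL019W lay between 2.53 and 4.53 in the other 14 of 15 alternatives. YJR027W stayed below the median in 14 of 14, and YER138C in 11 of 15, with a highest mean of 0.086. The median over genes and unnamed probes, and the values without YCL019W, were added after the data were seen.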
